A study of Mus musculus with 10 samples.

Results

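The genes described here are 40 mouse genes for plasma proteins secreted by hepatocytes, the main epithelial cell of the liver, in 10 RNA libraries of a pancreatic cancer model. They were chosen by gene symbol, and all 40 were found among the 48516 genes of the expression table, each once. The set was selected on its measured values in these same libraries, so the levels below are a description and are not tested for being high. By role they comprise 8 carrier and transport proteins, 6 apolipoproteins, 15 protease inhibitors and their relatives, 7 genes of coagulation and fibrinolysis and their adhesive cofactors, and 4 genes of complement, the acute phase and hepatokine signalling.

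Ink4a.1, a pancreatic cancer cell line, was placed in the pancreas of Ink4.1syn_Luc mice, and cell lines were established in culture from metastases in the liver. Of the 10 libraries, 5 are labelled as such metastasis lines, with tumour numbers 25, 35, 36, 38 and 72, and 5 as primary tumour under the same numbers. All 10 are of the FVB strain, untreated, grown as cell lines to 90% confluence, and carry the tissue label pancreas tumour. The series design names metastases from 4 mice, against 5 metastasis numbers in the labels, and ages and sexes are not given. The labels do not say whether a line is 1 clone, nor whether the primary samples are separate tumours or repeat cultures of the parental line, so a p-value here may rest on technical spread alone. Polyadenylated RNA was measured as FPKM (fragments per kilobase of transcript, scaled to depth). Estimated depth was 15.7 M fragments in metastasis 25 and 24.0 to 30.4 M in the other 9 libraries.

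Hepatocytes make most of the proteins of blood plasma and release them through the endoplasmic reticulum and Golgi, with albumin as the most abundant. Their genes are read mainly in hepatocytes under liver-enriched transcription factors such as HNF1, HNF4, FOXA and C/EBP, and the acute phase genes among them rise with interleukin 6 and interleukin 1. A pancreatic cancer cell line is not a known source of most of these transcripts. A few members, among them C3 and Trf, are also made by other cells.

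The cell type label was checked against markers. Of 10 markers of pancreatic tumour epithelium, 6 (Krt8, Krt18, Krt19, Msln, Sox9 and Pdx1) were above 4 FPKM in all 10 libraries, with Krt18 between 61.4 and 386 FPKM. Others were near 0 in the 4 libraries of numbers 35 and 36, in which the epithelial adhesion genes Epcam and Cdh1 were at most 0.0610 and 0.291 FPKM and the mucin Muc1 at most 0.0518 FPKM. Transcripts of other cells differed between libraries. Macrophage markers summed to 1033, 4784 and 2362 FPKM in metastasis 25, 38 and 72, and to 2989, 2666 and 882 FPKM in primary 25, 38 and 72. In the 4 libraries of numbers 35 and 36 they summed to 13.2 to 17.1 FPKM. Metastasis 25 also held neutrophil markers (S100a9, a calcium-binding protein of neutrophils, at 6727 FPKM) and erythroid markers (the haemoglobin gene Hbb-bs at 18065 FPKM). Metastasis 38 held skeletal muscle transcripts, with the muscle actin Acta1 at 1978 FPKM. Primary 25 held islet transcripts, with the insulin gene Ins2 at 5163 FPKM, and primary 72 held muscle transcripts, with Acta1 at 133 FPKM. Because the libraries are bulk RNA, fewer cells of a type and less RNA per cell cannot be told apart.

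Promoter sequence, credited to RefSeq on GRCm38.p6, was available for 32 of the 40 members in 36 entries of 250 bases before and 50 bases after the start of the gene. The 250 bases before the start are shown for Alb, the albumin gene to which the others are compared below, and for the highest member of each role group that has an entry, together with Saa1 beside its neighbour Saa2. Capitals mark a match on either strand to GTTAAT (part of the HNF1 family site), TGTTTGC (FOXA family) or TTGCNNAA (C/EBP family). The last 2 motifs can overlap by their shared TTGC.
Alb: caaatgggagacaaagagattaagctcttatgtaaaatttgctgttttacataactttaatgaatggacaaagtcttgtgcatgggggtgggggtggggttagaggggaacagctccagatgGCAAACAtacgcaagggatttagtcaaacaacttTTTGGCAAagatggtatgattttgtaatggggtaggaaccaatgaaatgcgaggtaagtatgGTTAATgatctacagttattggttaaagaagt
Apoa1: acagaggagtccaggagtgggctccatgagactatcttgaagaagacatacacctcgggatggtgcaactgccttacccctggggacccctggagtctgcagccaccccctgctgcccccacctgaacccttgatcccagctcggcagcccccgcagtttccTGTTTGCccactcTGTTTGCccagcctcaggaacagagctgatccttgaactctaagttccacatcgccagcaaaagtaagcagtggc
Ahsg: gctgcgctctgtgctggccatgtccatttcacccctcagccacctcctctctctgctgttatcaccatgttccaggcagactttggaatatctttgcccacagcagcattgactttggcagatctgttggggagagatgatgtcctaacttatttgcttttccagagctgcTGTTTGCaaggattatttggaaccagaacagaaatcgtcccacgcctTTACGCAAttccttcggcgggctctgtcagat
Fgg: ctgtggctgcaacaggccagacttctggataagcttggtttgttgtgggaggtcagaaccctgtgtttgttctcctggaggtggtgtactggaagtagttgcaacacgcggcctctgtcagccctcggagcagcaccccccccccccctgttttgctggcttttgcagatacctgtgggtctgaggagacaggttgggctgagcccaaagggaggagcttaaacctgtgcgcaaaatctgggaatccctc
Saa1: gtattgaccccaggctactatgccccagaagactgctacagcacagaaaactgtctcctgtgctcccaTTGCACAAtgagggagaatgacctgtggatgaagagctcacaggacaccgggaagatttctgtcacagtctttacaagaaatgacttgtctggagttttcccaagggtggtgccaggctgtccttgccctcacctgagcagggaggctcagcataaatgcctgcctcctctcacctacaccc
Saa2: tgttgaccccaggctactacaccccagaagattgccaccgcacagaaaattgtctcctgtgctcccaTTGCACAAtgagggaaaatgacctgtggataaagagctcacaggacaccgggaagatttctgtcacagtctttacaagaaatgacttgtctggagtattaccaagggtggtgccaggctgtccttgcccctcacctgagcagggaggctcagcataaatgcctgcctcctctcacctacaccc
The entries run 5′ to 3′ on the strand of the gene. Alb lies at chr5:90460620-90460869 (plus strand), Apoa1 at chr9:46228380-46228629 (plus), Ahsg at chr16:22891765-22892014 (plus), Fgg at chr3:83007474-83007723 (plus), Saa1 at chr7:46742981-46743230 (minus) and Saa2 at chr7:46751583-46751832 (plus). The Alb stretch held 1 match to each motif, Apoa1 held 2 to TGTTTGC, and Fgg held none of the 3. Saa1 and Saa2, which face away from each other, differed by 13 single-base edits over these 250 bases and shared 1 match to TTGCNNAA. Over the full entries, GTTAAT was in 33.3% of the members' 36 entries and in 7.10% of all 32851 entries. TGTTTGC was in 36.1% of the members' entries against 5.07% of all, and TTGCNNAA in 50% against 10.8%. CAAAGTNCA, an HNF4 family motif, was in 5.56% against 1.41%, TTCNNNGAA, a STAT family motif, in 13.9% against 8.30%, and TATAAA, the TATA box, in 27.8% against 13.6%. In 52 entries of hepatocyte plasma protein genes outside the set, GTTAAT was in 28.8%, TGTTTGC in 7.69% and TTGCNNAA in 25%. TGTTTGC was thus nearer there to its share of all entries than to that of the members. These are matches of letters only, and the entries of paralogues share sequence. Serpina1a to Serpina1e were all among the 12 members with GTTAAT and the 12 with TGTTTGC.

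The 5 Serpina1 genes, which encode forms of alpha-1-antitrypsin in the mouse, share a run of 59 bases that was the longest identical stretch in all 5 entries. It is shown, with capitals as above, as the stretch that all 5 share. Their listed levels differed widely, and the split of reads between them is uncertain, as described below.
Serpina1a to Serpina1e: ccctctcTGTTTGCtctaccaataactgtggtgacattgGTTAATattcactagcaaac
On the minus strand of chromosome 12, the run lies at 103863621-103863679 for Serpina1a, 103738196-103738254 for Serpina1b, 103904958-103905016 for Serpina1c, 103773630-103773688 for Serpina1d and 103956956-103957014 for Serpina1e. It holds 1 match each to TGTTTGC and GTTAAT. The run begins 117 bases before the start of Serpina1e and 55 to 66 bases before that of the others. The entries also differ around it. Compared without gaps up to the end of the run, Serpina1b matched the others at 59.0% to 72.4% of bases.

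The 40 members were far more abundant in metastasis 25 than in any other library, and next most abundant in primary 72. Their summed level was 57379, 24.8, 11.7, 303 and 1567 FPKM in metastasis 25, 35, 36, 38 and 72, against 693, 9.69, 12.2, 428 and 6886 FPKM in primary 25, 35, 36, 38 and 72. The 2 libraries with the highest sums thus carry different labels, and the ranges of the groups overlap. The sum was 6.11% of all FPKM in metastasis 25 and 1.07% in primary 72, and at most 0.263% in each of the other 8. Of the 40 members, 40, 3, 3, 7 and 37 reached 1 FPKM in metastasis 25, 35, 36, 38 and 72, and 26, 2, 2, 7 and 40 in primary 25, 35, 36, 38 and 72.

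**Figure D1:**
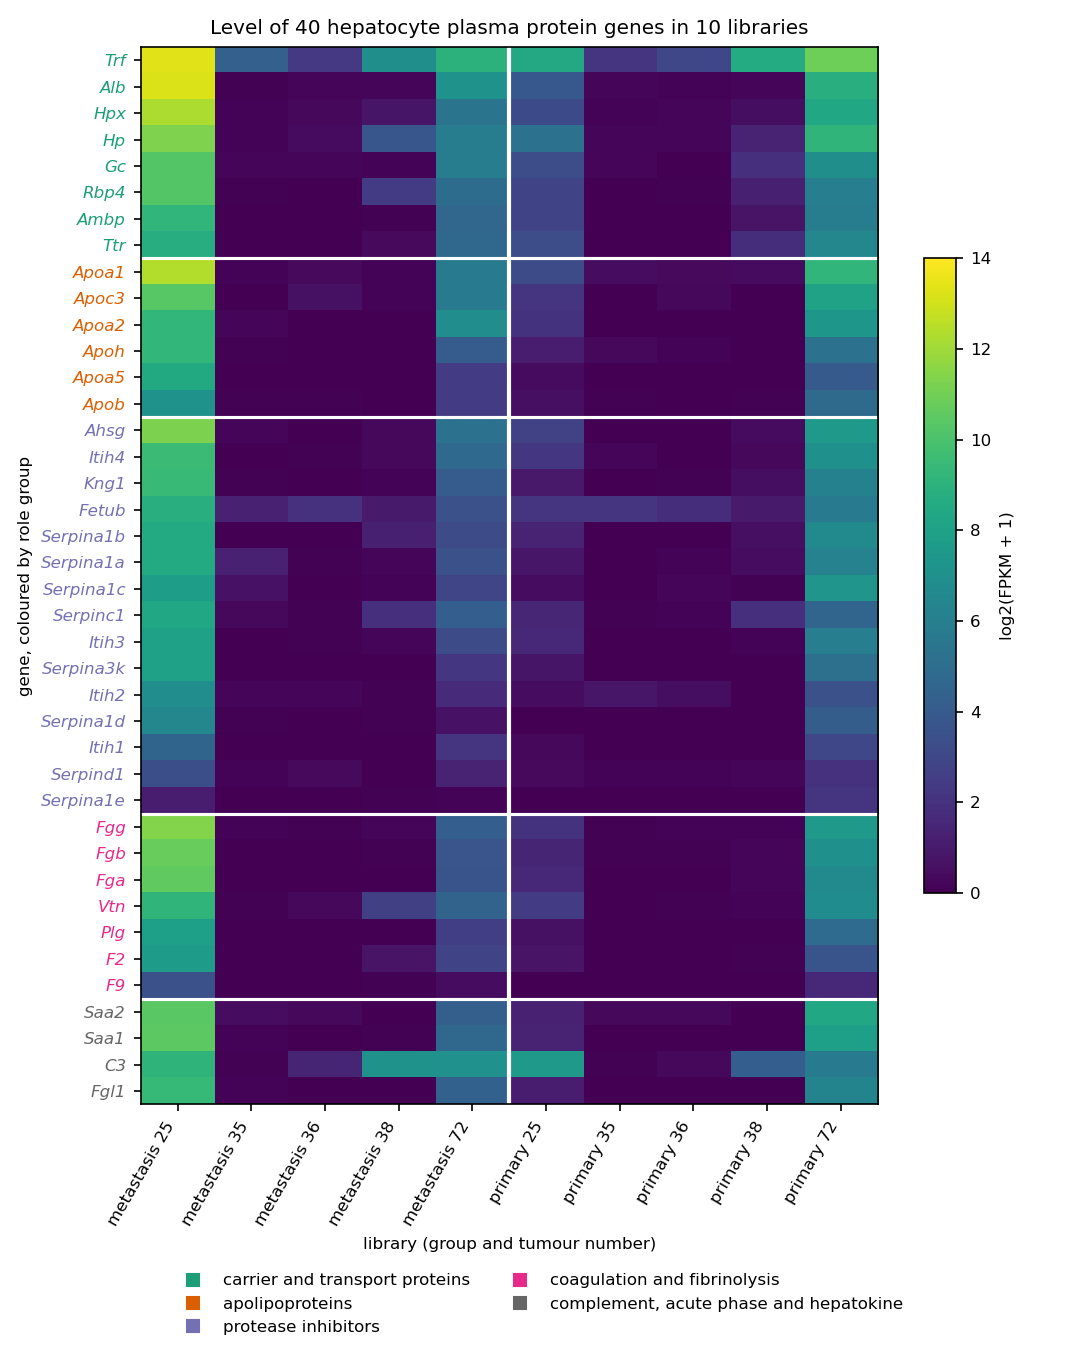
Level of each of the 40 members, as log2(FPKM + 1), in the 5 metastasis libraries (left) and the 5 primary libraries (right), by role group. Metastasis 25 is the brightest column and primary 72 the next for most genes. Numbers 35 and 36 are dark except for Trf and Fetub, with Serpina1a at 1.41 FPKM in metastasis 35 and C3 at 1.69 FPKM in metastasis 36.

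Of the 40 members, 39 had their highest level in metastasis 25. The same held for 22% of the 17076 genes at 1 FPKM or more in any library, and for 20.6% of the 13152 genes at 1 FPKM or more in at least 5 libraries, of which 10 are members. The order metastasis 25, primary 72, metastasis 72 from the top was found for 38 members and for 2.72% of the 17076 genes. With metastasis 25 left out, a comparison added after the data had been seen, 39 members were highest in primary 72, as were 19.1% of the 17076 genes. The members were selected with these values known, so nothing is read from the difference. The exceptions were Serpina1e, highest in primary 72, and C3, whose second highest library was primary 25.

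Among the carrier and transport proteins, Trf and Alb were the most abundant. Alb (serum albumin, the main carrier of fatty acids and bilirubin) was at 9849.9, 0.0426, 0.134, 0.159 and 139 FPKM in metastasis 25, 35, 36, 38 and 72, and at 13.2, 0.188, 0.102, 0.180 and 436 FPKM in primary 25, 35, 36, 38 and 72. Albumin transcript was thus high in metastasis 25, present in primary 72, metastasis 72 and primary 25 in falling order, and at an estimated 2.08 to 9.74 fragments in each of the other 6 libraries. Trf, transferrin, which carries iron, had 10774, 18.9, 3.97, 125 and 517 FPKM in metastasis 25, 35, 36, 38 and 72, against 355, 3.40, 6.84, 394 and 1906 FPKM in primary 25, 35, 36, 38 and 72. Trf exceeded Alb in all 10 libraries, and Trf and C3 were the 2 members above 10 FPKM in both libraries of number 38, in which Alb was at most 0.180 FPKM. Of its 31-base words, 63.8% also occur in transcripts of other genes, chiefly the overlapping Gm20425, so its level is uncertain by the share of reads given to that gene. Macrophage markers were also high in both number 38 libraries, and their part in the Trf level was not tested.

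The 2 scavengers of free haemoglobin and haem differed in where they were found. Hp (haptoglobin, which binds free haemoglobin) was at 2499.8, 0.102, 0.307, 12.6 and 58.6 FPKM in metastasis 25, 35, 36, 38 and 72, and at 37.6, 0.134, 0.195, 1.52 and 565 FPKM in primary 25, 35, 36, 38 and 72. Hpx, hemopexin, which binds free haem, had 4941, 0.120, 0.216, 0.755 and 40.5 FPKM in metastasis 25, 35, 36, 38 and 72, against 7.98, 0.0913, 0.143, 0.458 and 334 FPKM in primary 25, 35, 36, 38 and 72. Hp was the higher of the 2 in primary 72, primary 25 and metastasis 72, and Hpx in metastasis 25. In metastasis 38 Hp stood at 12.6 FPKM while Hpx was at 0.755 FPKM. Gc (the vitamin D binding protein) was at 1225, 0.150, 0.137, 0.116 and 60.1 FPKM in metastasis 25, 35, 36, 38 and 72, and at 8.77, 0.147, 0.0233, 2.65 and 127 FPKM in primary 25, 35, 36, 38 and 72. Rbp4, the carrier of retinol in plasma, had 1232, 0.0528, 0, 4.66 and 30.4 FPKM in metastasis 25, 35, 36, 38 and 72, against 6.25, 0, 0.0505, 1.36 and 62.1 FPKM in primary 25, 35, 36, 38 and 72. Ttr (transthyretin, the carrier of thyroxine and partner of Rbp4) was at 420.1, 0.0381, 0.0344, 0.298 and 25.7 FPKM in metastasis 25, 35, 36, 38 and 72, and at 9.01, 0.0374, 0, 2.55 and 88.3 FPKM in primary 25, 35, 36, 38 and 72. For all 3 of these, metastasis 25 was highest and primary 72 next, and the numbers 35 and 36 were at or near 0. Ambp, the precursor of alpha-1-microglobulin and bikunin, was at 593 and 24.0 FPKM in metastasis 25 and 72, and primary 72 had 57.9 FPKM of it.

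The apolipoproteins carry and direct lipids in lipoprotein particles. Apoa1, the main protein of high-density lipoprotein, had 5432, 0.0926, 0.293, 0.108 and 56.4 FPKM in metastasis 25, 35, 36, 38 and 72, against 8.58, 0.364, 0.266, 0.352 and 604 FPKM in primary 25, 35, 36, 38 and 72. Apoc3 (an inhibitor of triglyceride clearance) was at 1326, 0, 0.521, 0.0855 and 52.6 FPKM in metastasis 25, 35, 36, 38 and 72, and at 3.35, 0, 0.220, 0 and 271 FPKM in primary 25, 35, 36, 38 and 72. Apob, the structural protein of very-low-density and low-density lipoprotein and the lowest of the 6 by mean, had 139, 0.0735, 0.0531, 0.0157 and 4.52 FPKM in metastasis 25, 35, 36, 38 and 72, against 0.505, 0.0584, 0.0189, 0.0537 and 27.8 FPKM in primary 25, 35, 36, 38 and 72. All 6 members of the group reached 1 FPKM in metastasis 25, metastasis 72 and primary 72, and none did in the 6 libraries of numbers 35, 36 and 38. Apoa2, the other major protein of high-density lipoprotein, was closer between these libraries than the rest of its group, at 614 and 117 FPKM in metastasis 25 and 72 and 169.8 FPKM in primary 72. Apoa5, an activator of lipoprotein lipase, was at 355 and 4.38 FPKM in metastasis 25 and 72 and 14.6 FPKM in primary 72. Apoh, which binds phospholipids, was at 617 and 15.9 FPKM in metastasis 25 and 72 and 37.6 FPKM in primary 72.

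The group of protease inhibitors spanned the widest range. Ahsg (fetuin-A, a cystatin relative that keeps calcium phosphate in solution, the highest of the 15 by mean and one of the 12 most abundant members) was at 2443, 0.122, 0, 0.240 and 37.5 FPKM in metastasis 25, 35, 36, 38 and 72, and at 5.66, 0.0300, 0, 0.329 and 191 FPKM in primary 25, 35, 36, 38 and 72. Fetub, fetuin-B, an inhibitor of ovastacin and neighbour of Ahsg on chromosome 16, had 432, 1.41, 3.01, 0.991 and 9.95 FPKM in metastasis 25, 35, 36, 38 and 72, against 3.54, 3.38, 2.55, 0.995 and 55.1 FPKM in primary 25, 35, 36, 38 and 72. Unlike Ahsg, Fetub stayed between 1.41 and 3.38 FPKM for numbers 35 and 36, where Ahsg was at most 0.122 FPKM. Serpinc1 (antithrombin, the main inhibitor of thrombin) was at 317, 0.238, 0.0757, 2.74 and 16.8 FPKM in metastasis 25, 35, 36, 38 and 72, and at 1.80, 0.0692, 0.0802, 2.86 and 22.7 FPKM in primary 25, 35, 36, 38 and 72. Serpinc1 was nearly level in metastasis 38 and primary 38.

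The 5 Serpina1 paralogues did not keep the same order between libraries. Serpina1a, Serpina1b, Serpina1c, Serpina1d and Serpina1e were at 378, 381, 219.7, 89.2 and 1.12 FPKM in metastasis 25. In primary 72 they were at 71.6, 97.7, 154.5, 16.8 and 3.36 FPKM, so Serpina1c led there and Serpina1b in metastasis 25. Serpina1b, the one paralogue kept for the test, had 381, 0, 0.0294, 1.33 and 8.70 FPKM in metastasis 25, 35, 36, 38 and 72, against 1.49, 0, 0.0312, 0.466 and 97.7 FPKM in primary 25, 35, 36, 38 and 72. Serpina1e (the lowest member of the group) was at 1.12, 0, 0, 0.0556 and 0.112 FPKM in metastasis 25, 35, 36, 38 and 72, and at 0, 0, 0, 0 and 3.36 FPKM in primary 25, 35, 36, 38 and 72. Serpina1e was above 1 FPKM in metastasis 25 and primary 72 alone. Between 44.7% and 82.2% of the 31-base words of these 5 genes occur in other transcripts, mostly of each other, and Serpina1b and Serpina1d share 1 locus in the table, so the split between them is uncertain. Serpina3k, a relative encoding contrapsin, was at 255 and 3.67 FPKM in metastasis 25 and 72 and 34.8 FPKM in primary 72, with 24.2% of its words shared. Kng1, kininogen, the precursor of bradykinin, was at 723 and 15.7 FPKM in metastasis 25 and 72 and 69.0 FPKM in primary 72, with 26.5% of its words shared, all with Kng2.

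The inter-alpha-trypsin inhibitor heavy chains were led by Itih4. Itih1, Itih2, Itih3 and Itih4 were at 21.6, 115, 261 and 741 FPKM in metastasis 25 and at 6.80, 9.97, 63.2 and 129 FPKM in primary 72. Itih4 was the highest and Itih1 the lowest in both libraries. In metastasis 72 the 4 genes were at 3.38, 2.14, 8.21 and 26.7 FPKM. Serpind1, heparin cofactor II, was at 9.46 and 1.67 FPKM in metastasis 25 and 72 and 2.95 FPKM in primary 72.

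The 3 chains of fibrinogen, which lie side by side on chromosome 3, had the same order in the 3 libraries that held most of them. Fgg, the gamma chain, had 2738, 0.101, 0.0685, 0.185 and 17.1 FPKM in metastasis 25, 35, 36, 38 and 72, against 3.13, 0.0769, 0.0999, 0.117 and 179 FPKM in primary 25, 35, 36, 38 and 72. Fgb (the beta chain) was at 1695, 0.0218, 0.0196, 0.0520 and 11.7 FPKM in metastasis 25, 35, 36, 38 and 72, and at 1.76, 0.0535, 0.0416, 0.158 and 128 FPKM in primary 25, 35, 36, 38 and 72. Fga, the alpha chain, had 1549, 0.0208, 0.0374, 0.0130 and 11.3 FPKM in metastasis 25, 35, 36, 38 and 72, against 2.11, 0, 0.0356, 0.178 and 104 FPKM in primary 25, 35, 36, 38 and 72. Fgg was above Fgb and Fgb above Fga in metastasis 25, metastasis 72 and primary 72, whereas Fga was above Fgb in primary 25. The level of each chain in metastasis 25 was 13.2 to 15.3 times that in primary 72. Vtn (vitronectin, an adhesive protein that stabilises the plasminogen activator inhibitor) was at 561, 0.0777, 0.251, 5.22 and 21.2 FPKM in metastasis 25, 35, 36, 38 and 72, and at 4.55, 0.0248, 0.0740, 0.0956 and 112 FPKM in primary 25, 35, 36, 38 and 72. Vtn was 5.22 FPKM in metastasis 38, in which the fibrinogen chains were at most 0.185 FPKM. F9, coagulation factor IX, the lowest of the 7, had 10.3, 0, 0, 0.0491 and 0.355 FPKM in metastasis 25, 35, 36, 38 and 72, against 0.0152, 0, 0, 0.0140 and 1.96 FPKM in primary 25, 35, 36, 38 and 72. F2, prothrombin, was at 211 and 6.36 FPKM in metastasis 25 and 72 and 11.3 FPKM in primary 72, and Plg, plasminogen, at 236, 5.15 and 28.7 FPKM in these 3 libraries.

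In the last group, the 2 acute phase amyloid genes followed the albumin pattern and C3 did not. Saa1 (serum amyloid A1) was at 1409, 0.0924, 0, 0.0699 and 24.9 FPKM in metastasis 25, 35, 36, 38 and 72, and at 1.65, 0, 0, 0 and 242 FPKM in primary 25, 35, 36, 38 and 72. Saa2, serum amyloid A2, had 1344, 0.359, 0.218, 0 and 17.8 FPKM in metastasis 25, 35, 36, 38 and 72, against 1.44, 0.235, 0.230, 0 and 319 FPKM in primary 25, 35, 36, 38 and 72. Saa1 was above Saa2 in metastasis 25 and metastasis 72, and Saa2 above Saa1 in primary 72. Of the 31-base words of Saa1 and Saa2, 46.8% and 44.5% are shared, mostly with each other. C3 (the central complement component) was at 544, 0.0786, 1.69, 146 and 134 FPKM in metastasis 25, 35, 36, 38 and 72, and at 193, 0.0392, 0.221, 17.4 and 52.2 FPKM in primary 25, 35, 36, 38 and 72. C3 exceeded 10 FPKM in all 6 libraries of numbers 25, 38 and 72, and at most 1.69 FPKM was found in those of numbers 35 and 36, the same division as the macrophage markers. Their part in the C3 level was not tested. Fgl1, fibrinogen-like protein 1, a secreted hepatokine, had 677, 0.0842, 0, 0.0328 and 19.2 FPKM in metastasis 25, 35, 36, 38 and 72, against 1.18, 0, 0, 0 and 79.3 FPKM in primary 25, 35, 36, 38 and 72. Fgl1 had the pattern of albumin.

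The composition of the set was not the same in the libraries that held it. Trf made up 18.8%, 33.0%, 51.2% and 27.7% of the summed members in metastasis 25, metastasis 72, primary 25 and primary 72, and Alb 17.2%, 8.86%, 1.91% and 6.33%. The ratio of metastasis 25 to primary 72 had a median of 7.58 over the 40 members, between 0.335 for Serpina1e and 24.3 for Apoa5, and was 22.6 for Alb. By role, the median ratio was 9.95 for carriers, 6.99 for apolipoproteins, 5.30 for protease inhibitors, 13.2 for coagulation genes and 7.18 for the last group. The ratio of metastasis 72 to primary 72 had a median of 0.192, and C3 alone, at 2.57, was above 1. These ratios compare single libraries and have no replicate check.

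Relative to Alb in the same library, Apoa1 was at 0.551, 0.406, 0.648 and 1.39 in metastasis 25, metastasis 72, primary 25 and primary 72. Saa1 was at 0.143, 0.179, 0.125 and 0.555, and Saa2 at 0.136, 0.128, 0.109 and 0.732, in the same 4 libraries. Apoa2 was at 0.0623, 0.842, 0.240 and 0.390. Primary 72 thus held more amyloid and Apoa1 transcript per albumin transcript than each of the other 3, and metastasis 72 more Apoa2. In primary 25, Trf at 26.8, C3 at 14.6 and Hp at 2.84 exceeded Alb. The median ratio to Alb over the 40 members was 0.0586, 0.118, 0.134 and 0.173 in these 4 libraries.

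**Figure D2:**
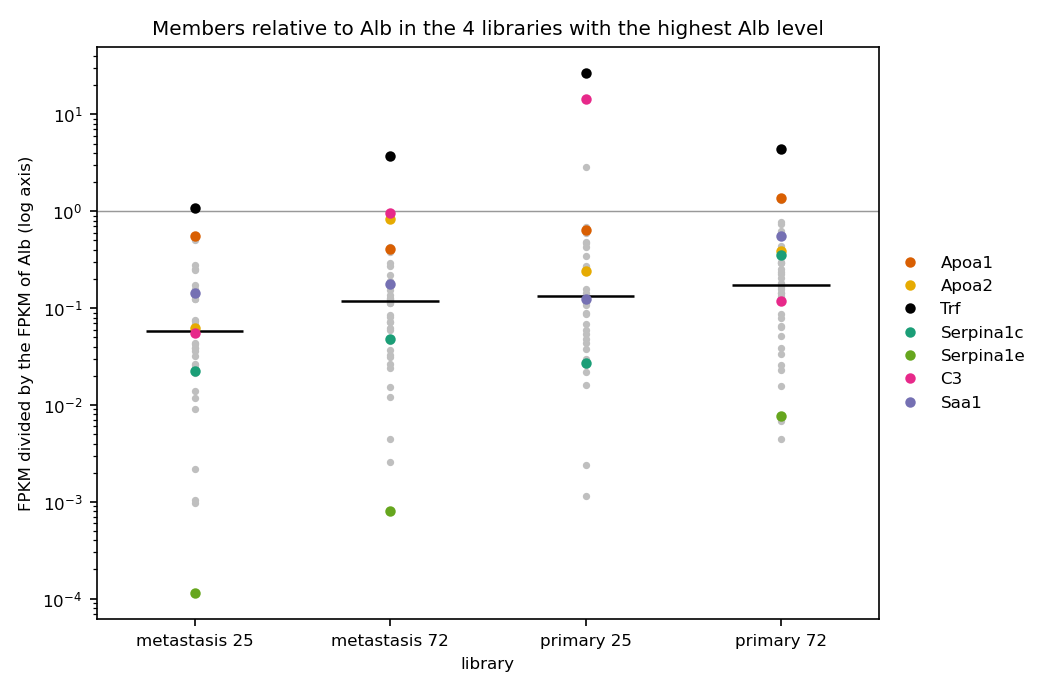
FPKM of each member divided by the FPKM of Alb, on a log axis, in the 2 metastasis libraries (left) and 2 primary libraries (right) with the highest Alb level. Grey points are other members and bars are the median over the 40 members, which was lowest, at 0.0586, in metastasis 25. Serpina1e was listed at 0 in primary 25 and has no point there.

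Over the 40 members, log2(FPKM + 1) in metastasis 25 and primary 72 correlated with Pearson's r of 0.907, against 0.831 for metastasis 25 and metastasis 72 and 0.621 for metastasis 25 and primary 25. Metastasis 72 and primary 25 correlated at 0.847. These are descriptions over genes, which are not independent. Over the 10 libraries, 31 of the 39 other members had r with Alb of at least 0.95, and the median was 0.974. Of the 17076 genes at 1 FPKM or more in any library, 0.96% reached 0.95. Since the members were selected with their values known, this difference is a description. The least like Alb were C3 at 0.714, Serpina1e at 0.740 and Trf at 0.848, and the most like was Ambp at 0.997. All 10 points are shared by these genes and metastasis 25 has the most weight. The genes outside the set most like Alb were Apoc4 (0.992), Hamp (0.992) and Apoc1 (0.990), encoding apolipoproteins C-IV and C-I and hepcidin, the hormone of iron control.

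The comparison of the metastasis group with the primary group asks whether liver metastasis lines differ from primary tumour in these genes. No member was called. The 10 libraries were compared with limma on log2(FPKM + 1), and of the 13152 genes tested 0 passed a Benjamini-Hochberg adjusted p of 0.05, a share of 0%, with 31 at an unadjusted p under 0.05. Of the 40 members, 10 passed the filter of 1 FPKM in at least 5 libraries and were tested, and 30 were not. None of the 10 reached an unadjusted p of 0.05, and no adjusted p was below 0.9998. A count over members that passed through the libraries in which they were high says nothing of the other 30. Alternative fits with a minimum of 1 FPKM in at least 1 library, or with no minimum, held all 40 members and called 0.

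The estimate, metastasis minus primary in log2 units, was 1.53 ± 1.93 (SE) for Rbp4, 1.42 ± 1.85 for Vtn, 1.41 ± 2.02 for C3, 1.32 ± 1.51 for Serpinc1, 1.06 ± 2.35 for Hp and 0.92 ± 1.78 for Serpina1b, with 5 libraries a group and adjusted p of 0.9998 by limma for each. It was 0.87 ± 2.11 for Gc, 0.71 ± 1.45 for Fetub, 0.58 ± 2.25 for Trf and 0.45 ± 1.84 for Ttr, with the same adjusted p. The standard error was larger than the estimate in all 10 in this comparison, which does not use the tumour numbers. With the number as a block it was smaller than the estimate for C3 (0.38), Serpinc1 (1.06), Rbp4 (1.16) and Vtn (1.17), and again no member was called, at an adjusted p of 0.999 by limma for each. With metastasis 25 left out, the estimates of Trf (-0.96), Hp (-0.69), Fetub (-0.66), Rbp4 (-0.14) and Serpinc1 (-0.023) changed sign, that of C3 was 0.38, and Ttr, Gc, Vtn and Serpina1b no longer passed the filter and have no estimate. The estimates of Ttr and Trf changed sign without primary 35 (-0.12 and -0.54) and without primary 36 (-0.13 and -0.33). Mean levels show the same spread: in metastasis lines Trf averaged 2288 ± 4748 FPKM and C3 165 ± 223 FPKM, while in primary samples Trf averaged 533 ± 789 FPKM and C3 52.6 ± 81.3 FPKM (SD, n = 5 each).

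**Figure D3:**
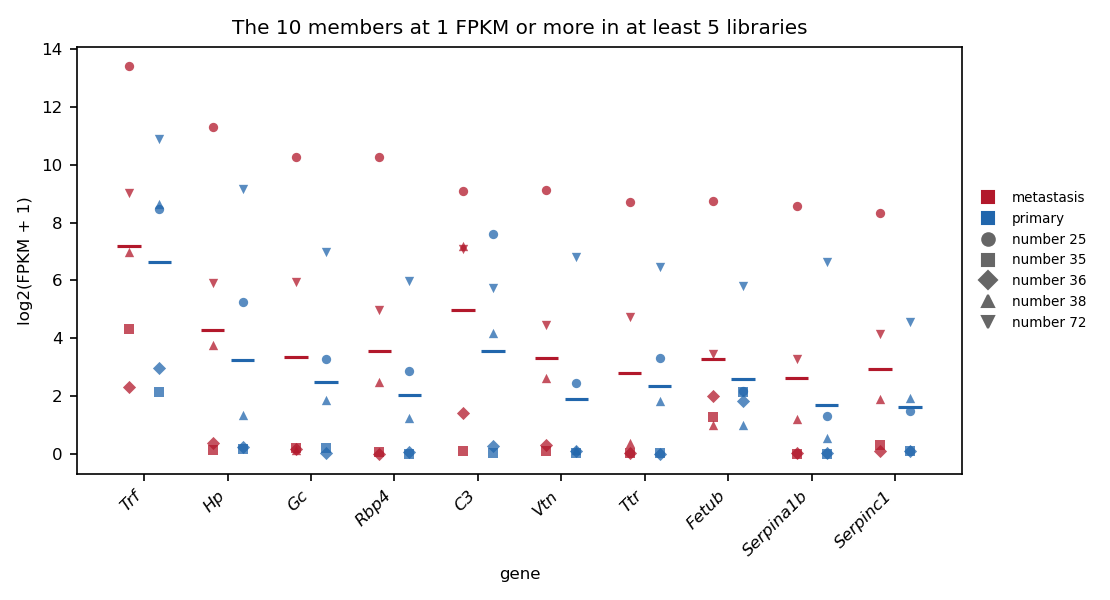
Level, as log2(FPKM + 1), of the 10 members at 1 FPKM or more in at least 5 libraries, with the metastasis libraries on the left and the primary libraries on the right for each gene. Symbols mark the tumour number and bars the mean of 5 libraries. The groups overlap for each gene, and metastasis 25 is the highest point of each.

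Paired by the numbers in the labels, the direction of the difference between metastasis and primary changed with the tumour number. These pairs are loose for 25 and 72, whose deviations from the group means correlated at 0.39 and 0.23. Metastasis 25 was closer to primary 72, and metastasis 72 to primary 25, so the opposite directions rest on the labelled numbers. A 4-fold difference, a difference of 2 on the log2(FPKM + 1) scale, was the measure, and 1 library against 1 allows no test. In number 25, 38 of 40 members were at least 4-fold higher in metastasis, the exceptions being C3 and Serpina1e, against 4.36% of the 17076 genes. The median difference was 7.23, between 1.09 for Serpina1e and 9.43 for Alb. In number 72, 22 of 40 were at least 4-fold lower in metastasis, against 2.96% of the genes, and the median difference was -2.25. C3 was the one member above 0 there, by 1.35. In number 38, C3, Hp and Vtn were at least 4-fold higher in metastasis, by 2.998, 2.43 and 2.504, or 3 of 40 against 2.83% of the genes, a share of the same order. In number 35 Trf alone passed, higher in metastasis by 2.18, as did 0.42% of the genes in that direction. In number 36 none did, against 0.29% of the genes higher and 0.27% lower in metastasis. C3 was higher in metastasis in 5 of 5 numbers, by 1.49, 0.05, 1.14, 2.998 and 1.35 for 25, 35, 36, 38 and 72. For number 35, C3 was near 0 in both libraries, at an estimated 9.68 fragments in metastasis and 4.94 in primary, so its direction there is uncertain. Its fitted difference with the number as a block was 1.41 ± 0.38 (SE), with an adjusted p of 0.999 by limma.

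**Figure D4:**
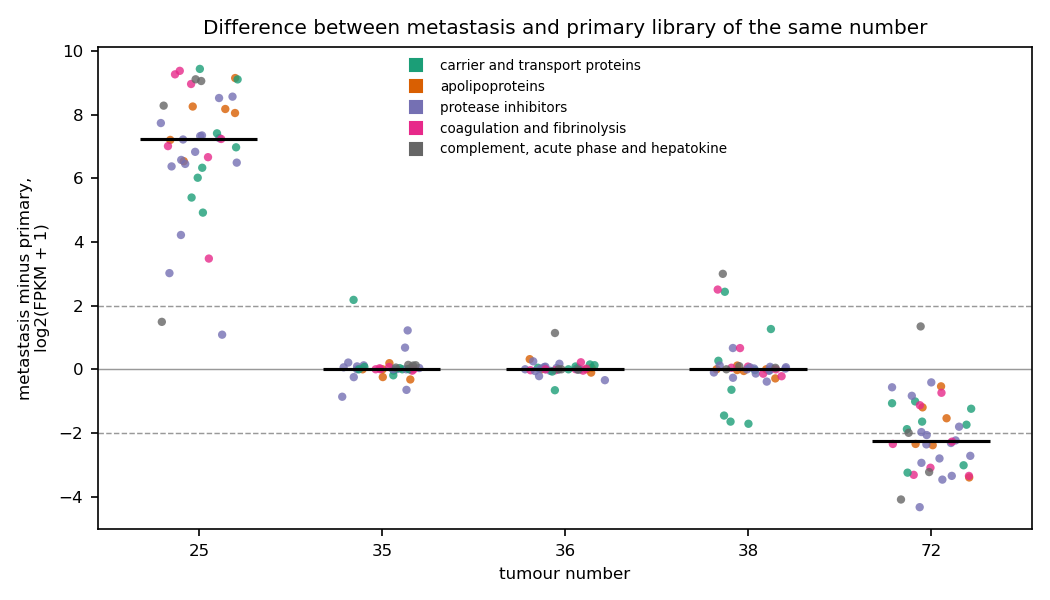
Difference between the metastasis and the primary library of the same tumour number, paired by label alone, in log2(FPKM + 1), for each of the 40 members. Bars are medians and dashed lines mark a 4-fold difference. The points lie above 0 in number 25, with a median of 7.23, and below 0 in number 72 except for C3, with a median of -2.25.

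Other hepatocyte genes, from lists that do not hold the members, were found in the same libraries. The lists were chosen with earlier results of these data known, so their counts are a description and no separate evidence. Of 58 further genes for hepatocyte plasma proteins that reached 1 FPKM in any library, 48 were highest in metastasis 25 and 35 had the order metastasis 25, primary 72, metastasis 72. Of the 17076 genes, 22% were highest in metastasis 25 and 2.72% had that order. Hamp was at 4580 FPKM in metastasis 25 and 177 FPKM in primary 72. Igfbp1, a binding protein of insulin-like growth factors, was at 2265 and 69.5 FPKM in these libraries. Apoe, which macrophages also make, was at 3586, 40.8, 13.5, 740.1 and 2268 FPKM in metastasis 25, 35, 36, 38 and 72 and at 1377, 2.88, 23.6, 566 and 772 FPKM in primary 25, 35, 36, 38 and 72. Of 28 intracellular hepatocyte enzymes and transporters, 27 were highest in metastasis 25. Tat, a tyrosine-degrading enzyme, was at 1603 FPKM in metastasis 25, 9.65 FPKM in metastasis 72 and 81.5 FPKM in primary 72, with no more than 0.0660 FPKM elsewhere. In number 25, 45 of the 58 plasma protein genes and 25 of the 28 enzymes were at least 4-fold higher in metastasis. In number 72, 16 and 6 of them were at least 4-fold lower in metastasis. Of the 17076 genes, 4.36% passed in number 25 and 2.96% in number 72, in these directions.

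Hnf4a, a nuclear receptor that governs many hepatocyte genes, was at 36.5 FPKM in metastasis 25, 1.18 FPKM in metastasis 72 and 5.57 FPKM in primary 72, with no more than 0.336 FPKM elsewhere. Of 14 liver transcription factors, 13 were highest in metastasis 25, and 5 had the order metastasis 25, primary 72, metastasis 72. The shares of the 17076 genes were 22% and 2.72%. Cebpb, an acute phase regulator that leukocytes also express, was at 82.8, 6.09, 8.25, 39.6 and 56.7 FPKM in metastasis 25, 35, 36, 38 and 72, and at 54.6, 5.55, 6.83, 18.7 and 49.9 FPKM in primary 25, 35, 36, 38 and 72. Of 14 genes of interleukin 6 and acute phase signalling, 2 were highest in metastasis 25, against 22% of the 17076 genes. Socs3, the feedback inhibitor of that pathway, was at 33.5 FPKM in metastasis 25 and 31.7 FPKM in primary 72, and highest in metastasis 72 at 72.4 FPKM. Saa1 and Saa2 were highest in metastasis 25 instead.

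Genes of periportal and pericentral hepatocytes were both present in metastasis 25. All 8 periportal genes were highest there, led by Pck1, the gluconeogenic enzyme, at 407 FPKM. So were 6 of 7 pericentral genes, led by Cyp2e1, a cytochrome of drug oxidation, at 259 FPKM, and 22% of the 17076 genes. In metastasis 72 Pck1 and Cyp2e1 were at 5.51 and 15.0 FPKM, and in primary 72 at 65.7 and 14.1 FPKM. Pck1 was thus above Cyp2e1 in metastasis 25 and primary 72 and below it in metastasis 72. The summed lists differed from this in primary 72, at 119.5 FPKM for periportal and 144 FPKM for pericentral genes. These sums were 729 and 540 FPKM in metastasis 25, and 36.7 and 100 FPKM in metastasis 72. Clec4f, a marker of Kupffer cells, the macrophages of liver, was at 7.38 FPKM in metastasis 25, 1.61 FPKM in metastasis 72 and 12.9 FPKM in primary 72, with no more than 0.174 FPKM elsewhere. None of 6 Kupffer cell markers was highest in metastasis 25. Clec4f, Vsig4 and Cd5l were highest in primary 72, Timd4 in metastasis 38 (12.3 FPKM), Marco in metastasis 72 (17.1 FPKM) and Folr2 in primary 25 (34.5 FPKM). Of 10 enterocyte markers, 5 (Vil1, Sis, Alpi, Cdx1 and Cdx2) were listed at 0 in metastasis 25, Fabp2, an intestinal fatty acid binding protein, was at 3.36 FPKM, and Apoa4, which hepatocytes also express, was the highest at 1021 FPKM. Dlk1, a gene of fetal liver and other progenitors, was at 406 FPKM in metastasis 25 and at most 3.80 FPKM elsewhere. It was the 1 gene highest in metastasis 25 among 3 yolk sac and fetal liver genes outside the members that reached 1 FPKM in any library. H19 of the same list was highest in metastasis 38, at 679.5 FPKM.

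**Figure D5:**
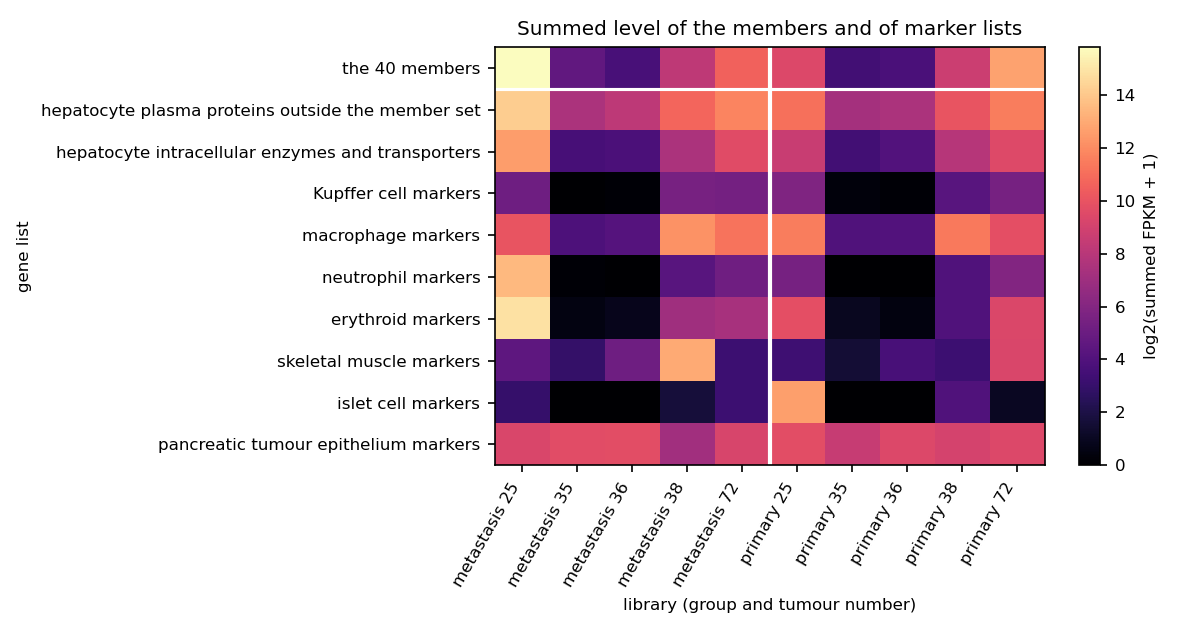
Summed level, as log2(summed FPKM + 1), of the 40 members and of 9 marker lists in the 5 metastasis libraries (left) and the 5 primary libraries (right). The 2 hepatocyte lists are brightest in metastasis 25, as are neutrophil and erythroid markers, while the macrophage markers divide numbers 25, 38 and 72 from 35 and 36.

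Receptors for these plasma proteins were mostly highest in libraries other than metastasis 25. Of 10 uptake and lipoprotein receptor genes, 2 were highest in metastasis 25. This is near the 22% of the 17076 genes, so nothing is read from the count. Tfrc, the transferrin receptor, was at 32.9, 112.5, 87.4, 26.8 and 9.14 FPKM in metastasis 25, 35, 36, 38 and 72, against 15.0, 78.1, 77.2, 18.6 and 12.4 FPKM in primary 25, 35, 36, 38 and 72. It was thus high in the libraries of numbers 35 and 36, in which Trf was lowest. No gene of these lists was called between the groups by limma, at an adjusted p of 0.05 over all genes tested.

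The members lie on 16 chromosomes, and 18 of the 40 have another member within 100 kb. These are the Serpina1 genes on chromosome 12, Itih4, Itih3 and Itih1 on chromosome 14, Ahsg and Fetub on chromosome 16, the fibrinogen genes on chromosome 3, Saa1 and Saa2 on chromosome 7, and Apoa1, Apoc3 and Apoa5 on chromosome 9.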

How the data were processed

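Polyadenylated RNA of 10 libraries, 5 of liver metastasis lines and 5 of primary tumour, had been measured by RNA sequencing. The values are FPKM as deposited by the authors, in 1 table of 48516 identified genes and 35 lines lacking an identifier, which were not used. Salmon, edgeR and the build mm8 are listed in the submitters' processing notes without version or role. Which program gave the FPKM is not given in the sources used. The loci of the table match GRCm38 (GENCODE M21) and not mm8: 99.97% of the identifiers found there with the same version lie inside the locus given.

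The members and gene lists were chosen with earlier results of these data known. The members were found by exact symbol. Values in every library are given for the 12 highest members by mean, those that pass the filter, and the highest and lowest of each role group, and other members by range and count. Partial values of other members go beyond this rule and were chosen after they were seen, as were the genes named for their likeness to Alb. From each list of other genes up to 4 are named, those with the highest level in any library. Of 286 list genes, 2 were not found.

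Genes at 1 FPKM or more in at least 5 libraries (13152) were compared as log2(FPKM + 1) by limma (version 3.58.1, R 4.3.3), a moderated test in which the prior variance follows intensity, at a Benjamini-Hochberg adjusted p of 0.05, tested first on simulated data. Fold changes of low genes are understated on this scale. A count test was not applied, since FPKM are not counts. Depth was estimated from the smallest steps of the values of 742 single-exon genes of at least 3000 bases, assuming scaling by the library's own total. The FPKM sum was 1.51 times the median library in metastasis 25, and levels there would be lower by this factor if all libraries were set to the same sum. Groups and tumour numbers come from the labels. Deviations from the group means of same-numbered libraries correlated at 0.39 (25), 0.86 (35), 0.89 (36), 0.68 (38) and 0.23 (72). The main test did not use the numbers. They were used for the differences within a number and as a block in an alternative fit. Metastasis 36 and 38 were closest to the primary sample of their own number, whereas metastasis 25 was closest to primary 72, metastasis 35 to primary 36 and metastasis 72 to primary 25. Alternatives were another pseudocount, other minimums, 2 scalings, the number as a block, no trend and omission of each library in turn. Shared sequence between genes was counted as words of 31 bases in GENCODE M21 transcripts. Promoters were those of RefSeq on GRCm38.p6. Plots used matplotlib 3.10.9 (Python 3.11.15).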

Additional observations from a re-analysis of the deposited data

Results flagged for a closer look

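Within each group of 5 libraries, 32 of 80 sets of values (40 members in 2 groups, on the log2(FPKM + 1) scale) had 1 library whose gap to the nearest other exceeded 0.71 of the range, Dixon's critical value for 5 samples. Chance flags about 1 in 20 such sets, but the members move together, so the sets are not independent. The members were also selected with these values known, and the measure was not applied to all genes. Nothing is therefore read from the count. In each case the library was the highest of its group, metastasis 25 in the metastasis group or primary 72 in the primary group.

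Metastasis 25 stood apart for Apoa5 at 355, Serpina1d at 89.2, Serpina1e at 1.12, Serpina3k at 255, Itih2 at 115 and F9 at 10.3 FPKM. These are members that the next library, metastasis 72, held at low level.

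Primary 72 stood apart for more members. Among the apolipoproteins these were Apoa2 at 169.8, Apoa5 at 14.6, Apob at 27.8, Apoc3 at 271 and Apoh at 37.6 FPKM. Among the protease inhibitors these were Serpina1a at 71.6, Serpina1b at 97.7, Serpina1c at 154.5, Serpina1d at 16.8, Serpina1e at 3.36, Serpina3k at 34.8, Serpind1 at 2.95, Fetub at 55.1, Itih1 at 6.80, Itih2 at 9.97, Itih3 at 63.2 and Kng1 at 69.0 FPKM. Among the coagulation genes these were Fga at 104, Fgb at 128, Fgg at 179, F2 at 11.3, F9 at 1.96 and Plg at 28.7 FPKM. In the last group these were Saa1 at 242, Saa2 at 319 and Fgl1 at 79.3 FPKM. Alb itself did not meet this measure in either group. The values beside which these libraries also differ, neutrophil and erythroid markers in metastasis 25 and skeletal muscle markers in primary 72, are given above, and their part was not tested.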

How the results depend on the processing

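No gene and no member was called between metastasis and primary in any of the 17 alternatives run, so 0 remained 0 in each, the replicate block included, in which the numbers as a block gave 0 genes and 0 members. The members highest in metastasis 25, 39 as deposited, numbered 38 when each library was scaled to the same FPKM sum, under which Serpina1c was highest in primary 72, and 39 with median ratio scaling. Scaling to the same sum moved the median of all genes to -0.11 (log2), from 0.01 as deposited, and changed no sign of the 10 tested members. With a pseudocount of 0.1 the members at least 4-fold higher in metastasis numbered 3 in number 35, against 1, and 1 in number 36, against 0, and those at least 4-fold lower in number 38 numbered 3, against 0. These members are near 0, where a smaller pseudocount widens any difference. A minimum of 0.1 FPKM in place of 1 moved the count of members by over 1.5 times in the 6 libraries of numbers 35, 36 and 38, to between 11 and 22, and gave 40 in metastasis 72 (against 37) and 37 in primary 25 (against 26). Of the 10 tested members, 6 changed the sign of their estimate when 1 library was left out: the estimate ranged between -0.13 and 1.13 for Ttr, -0.96 and 1.81 for Trf, -0.023 and 2.05 for Serpinc1, -0.66 and 1.51 for Fetub, -0.69 and 2.54 for Hp and -0.14 and 2.52 for Rbp4. C3 kept its sign in all 10 omissions. Serpina1b, Gc, Vtn and Ttr did not pass the filter without metastasis 25, metastasis 72, primary 25 or primary 72, nor Serpina1b and Vtn without metastasis 38, nor Ttr and Gc without primary 38, so their estimates were not tried there. The adjusted p was at least 0.999 for each of the 10 in all alternatives. In the 6 libraries of numbers 35, 36 and 38, levels of Alb rest on under 10 estimated fragments each, so differences among them were not detectable at this depth.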
